A study of Mus musculus with 2 samples.

Results

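The genes described here are Lef1, Tcf7, Satb1, Klf2, Klf3, Dapl1, Il7r and S1pr1, a set known for high expression in naive T cells. They were taken by gene symbol, with earlier results of these data known. Each symbol matched 1 feature, so they are 8 of the 31253 features in the count tables. The tables come from droplet single-cell RNA sequencing of live CD45+ immune cells sorted from B16 melanoma tumors. The shSdc1 group received B16 cells carrying an Sdc1 hairpin (Sdc1 encodes the surface proteoglycan syndecan-1), and the shRFP group received B16 cells with a control hairpin. All mice were wild type and had been immunized under the skin of the other flank with irradiated B16-GM-CSF cells 12 days before the tumor cells, and tumors were taken 16 days after injection. Strain and age are not given in the labels. The genotype field lists shSdc1 as a knockout, although its title and protocol describe a hairpin carried by the injected cells, so the immune cells measured here are those of unmodified hosts. Each group was 6 pooled tumors and 1 library. No spread between mice or tumors can be estimated, no difference below was tested, and the 95% intervals in square brackets cover counting error only.

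The shSdc1 library had 5902 barcodes with 4370725 UMIs and the shRFP library 5786 barcodes with 4255928 UMIs. Barcodes with at least 200 detected genes and under 10% mitochondrial UMIs numbered 5576 in shSdc1 and 5225 in shRFP, and 17 barcode sequences occurred in both libraries. After removal of likely doublets, 5313 shSdc1 cells and 4983 shRFP cells remained, with medians of 593 and 650 UMIs per cell. Cells were clustered without the 8 genes, and clusters were named "-like" from other marker genes. Levels are a gene's UMI counts scaled to 1000000 UMIs of the summed cells (CPM). They compare cells for 1 gene, not 1 gene with another. The kit reads the 3' ends of transcripts, so isoforms that differ only at their start are not told apart.

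Naive T cells are T cells that have left the thymus and have not yet met their antigen. Lef1 and Tcf7 encode related DNA-binding factors that set up and keep T cell identity and can act with beta-catenin or with TLE corepressors, and Satb1 encodes a chromatin organizer needed for T cell development. Klf2 and Klf3 are zinc finger factors; Klf2 keeps naive T cells quiescent and drives S1pr1, whose receptor lets T cells leave tissue toward sphingosine-1-phosphate in blood and lymph. Il7r encodes the receptor chain through which interleukin-7 keeps naive and memory T cells alive, and FOXO1 is a known activator of Il7r and Klf2. Dapl1 encodes a small protein related to death associated protein 1. Strong antigen stimulation is known to lower most of these genes.

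Upstream sequences of the members were searched for 3 motifs known for these factor families, because all 8 genes were lower in shSdc1 T-like cells. RefSeq windows (GRCm38.p6) of the 250 bases before each start were present for 7 of the 8 members, at 15 starts. The FOXO motif GTAAACA, searched on both strands, occurred in Dapl1 only among the members and in 3.17% of all 32851 windows. The TCF/LEF motif CTTTGA occurred in 1 of 4 Lef1 windows only and in 13.8% of all windows. The KLF motif CACCC occurred in 12 of the 15 windows, from 5 genes, and in 52.0% of all windows. The Dapl1 window holds neither of the other motifs, and the Lef1 window also holds 1 KLF match, 60 bases before its start, which does not overlap the capitals. A match describes letters in a window and does not show binding. The window of Dapl1, the member with the narrowest expression, lies on the plus strand at chr2:59484403-59484652, outside the annotated Dapl1 exons, with its FOXO match in capitals 164 bases before the start. The Lef1 window lies on the plus strand at chr3:131156044-131156293, inside the gene and outside its annotated exons, before an internal start, with its 2 reverse matches in capitals 180 and 120 bases before that start.
Dapl1: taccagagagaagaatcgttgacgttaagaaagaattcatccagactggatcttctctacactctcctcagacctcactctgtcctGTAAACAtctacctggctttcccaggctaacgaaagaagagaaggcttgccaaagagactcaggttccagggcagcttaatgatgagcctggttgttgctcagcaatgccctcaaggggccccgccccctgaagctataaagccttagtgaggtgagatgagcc
Lef1: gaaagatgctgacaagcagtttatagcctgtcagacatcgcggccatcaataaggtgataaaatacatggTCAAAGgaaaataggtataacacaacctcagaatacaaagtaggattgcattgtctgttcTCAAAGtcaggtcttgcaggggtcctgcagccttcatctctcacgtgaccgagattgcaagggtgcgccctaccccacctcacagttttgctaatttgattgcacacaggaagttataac

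In both libraries together, 6 of the 8 genes had their highest CPM in the naive-like T cells, a sub-cluster of 279 shSdc1 and 395 shRFP cells. That sub-cluster was named from 7 markers, among them Ccr7, Igfbp4, Actn1, Nsg2, Bach2 and Txk. All 7 were detected in it, at a summed 665 CPM in shSdc1 and 1356 CPM in shRFP. Although the 8 genes were kept out of the clustering, Tcf7, Dapl1, Satb1, Klf2, Lef1 and Klf3 were among its 10 leading genes by fold. The level in naive-like cells over the level in other T-like cells was 8.20 [6.16 to 11.0] for Lef1, 16.3 [10.5 to 26.3] for Tcf7 and 9.43 [7.26 to 12.3] for Satb1. It was 8.19 [6.36 to 10.6] for Klf2, 11.5 [6.40 to 21.4] for Klf3 and 21.4 [11.5 to 42.8] for Dapl1. The surface receptors were less concentrated there, at 5.45 [3.23 to 9.18] for S1pr1 and 3.28 [2.60 to 4.14] for Il7r. By highest CPM the name fits 6 genes of the set, but for Tcf7, Il7r and S1pr1 the interval overlapped that of the next group. Cells outside the T-like and NK-like classes held 63.1% of the Il7r and 53.4% of the S1pr1 UMIs. Klf2 was as high in neutrophil-like and B/plasma-like cells. Klf3 was as high only in neutrophil-like cells, at 152 CPM [49.5 to 356] from 5 UMIs.

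**Figure D1:**
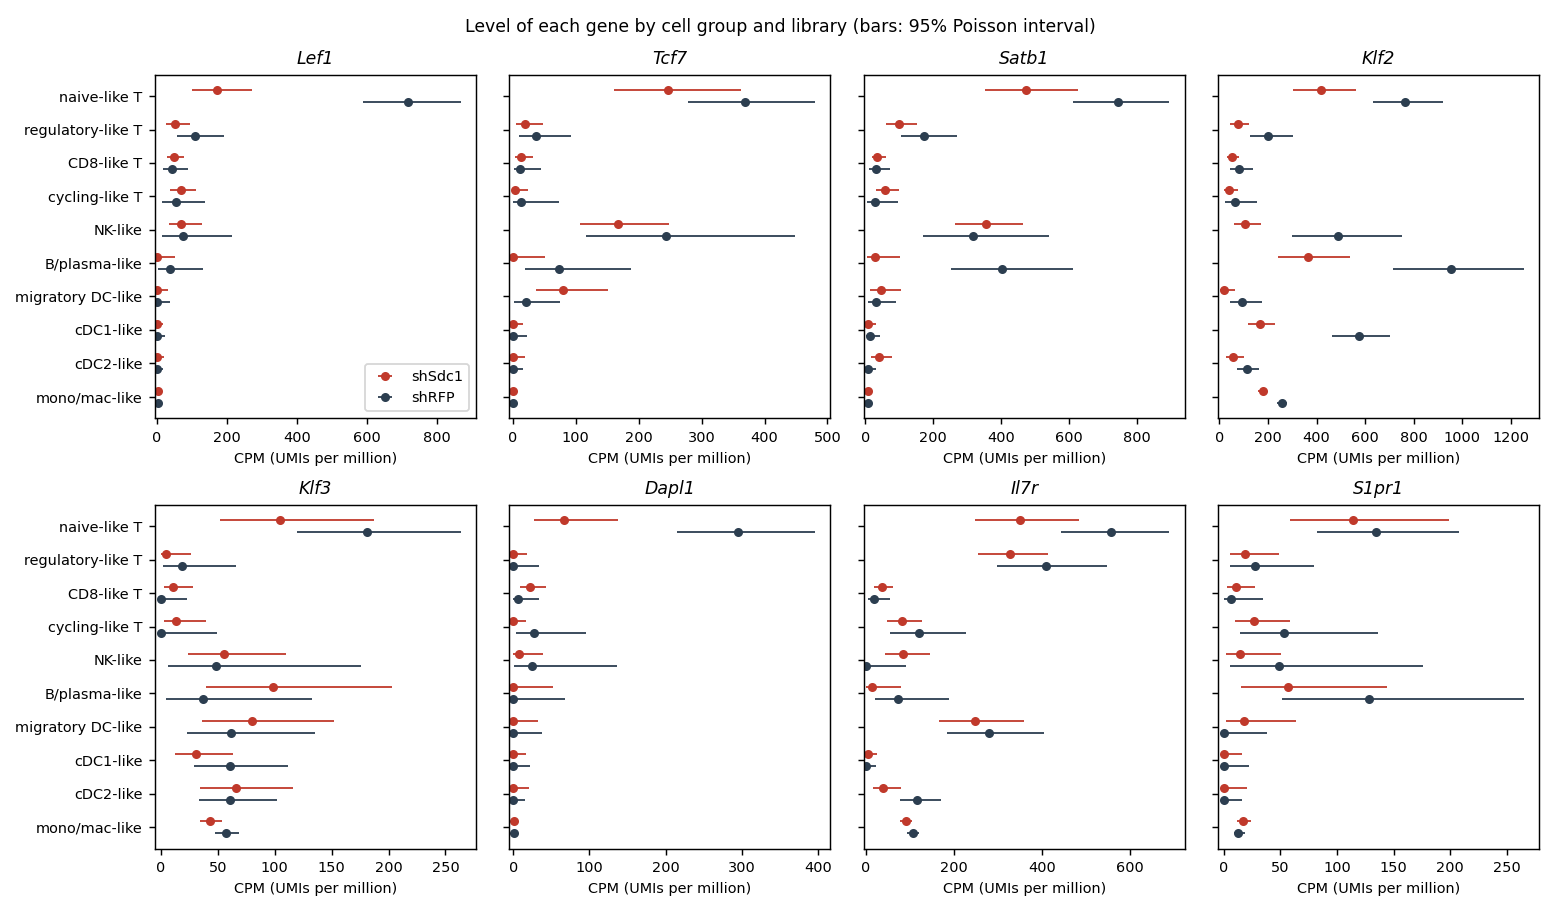
Level of each gene in 10 cell groups, in CPM (horizontal axes, linear, with a different range for each gene); points are the 2 libraries, shSdc1 above shRFP, and bars are 95% Poisson intervals. Lef1 and Dapl1 stand out in naive-like T cells only, and Tcf7 and Satb1 also in NK-like cells. Il7r stands out also in regulatory-like T cells and migratory dendritic cell-like cells, and Klf2 also in B/plasma-like cells. Klf2 is much lower in CD8-like, cycling-like and migratory dendritic cell-like cells.

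Lef1 (ENSMUSG00000027985, mm10 chr3:131110471-131224356, plus strand) had most of its UMIs in T-like cells. Of its UMIs in kept cells, T-like cells held 74 of 88 in shSdc1 and 134 of 150 in shRFP. NK-like cells, which are fewer, held 10 (69.5 CPM) in shSdc1 and 3 (73.1 CPM) in shRFP. Naive-like cells had 18 UMIs (171 CPM) in shSdc1 and 107 UMIs (718 CPM) in shRFP. The levels that followed, between 47.2 and 90.2 CPM in both libraries together, were those of CD8-like, cycling-like, regulatory-like and NK-like cells and of 2 unnamed T-like sub-clusters, and neighbours in that order had overlapping intervals. Monocyte/macrophage-like cells, the largest class with 2363 shSdc1 and 2636 shRFP cells, had 4 and 8 Lef1 UMIs, and no Lef1 UMI was seen in migratory dendritic cell-like, cDC1-like or cDC2-like cells of either library.

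Tcf7 (ENSMUSG00000000782, mm10 chr11:52252371-52283014, minus strand) encodes TCF-1. It was highest in naive-like cells, with 26 UMIs (247 CPM) in shSdc1 and 55 UMIs (369 CPM) in shRFP, followed by NK-like cells with 24 UMIs (167 CPM) in shSdc1 and 10 UMIs (244 CPM) in shRFP. Satb1 (ENSMUSG00000023927, mm10 chr17:51736187-51833290, minus strand) shared that order, with 50 UMIs (475 CPM) in shSdc1 and 111 UMIs (745 CPM) in shRFP in naive-like cells and 51 UMIs (354 CPM) in shSdc1 and 13 UMIs (317 CPM) in shRFP in NK-like cells. The profiles of these genes were the most alike within the set, with Pearson's r of 0.83 over 20 cell groups that share both libraries. In regulatory-like cells Tcf7 was low, with 4 UMIs in each library, and in the 158 shSdc1 and 71 shRFP T-like cells with a Foxp3 UMI it had none, which allows up to 26.6 and 72.2 CPM at the floor of 3 counts.

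Dapl1 (ENSMUSG00000026989, mm10 chr2:59484653-59505020, plus strand) had the narrowest pattern. T-like cells held 17 of its 20 UMIs in shSdc1 and 47 of 49 in shRFP, and naive-like cells had 7 (66.5 CPM) in shSdc1 and 44 (295 CPM) in shRFP. CD8-like cells were next, with 8 UMIs in shSdc1 and 1 UMI in shRFP. Regulatory-like cells, 459 in shSdc1 and 255 in shRFP, had none, which allows up to 14.2 and 27.3 CPM. Among the 57 T-like cells with a Dapl1 UMI, 21 had a Cd8b1 UMI, 11 had a Cd8a UMI and none had a Cd4 UMI, against 166 with Cd4 among the other 2772 T-like cells. Of the 57 cells 47 were naive-like, where Cd4 UMIs were rare in any case, in 11 of the 627 cells without Dapl1. Among naive-like cells, Cd8b1 was found in 29.8% of those with Dapl1 and 17.9% of those without, and Cd8a in 10.6% and 14.8%. Lef1 was found in 25.5% of the naive-like cells with Dapl1 and 14.0% of those without, and Tcf7 in 6.38% (3 cells) and 10.8%. Median depths were 391 and 332 UMIs. The naive-like cells with Dapl1 were 5 from shSdc1 and 42 from shRFP, and those without were 274 and 353. These shares therefore also compare the libraries, which cannot be told apart from Dapl1 here, and no gap was tested.

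Klf2 (ENSMUSG00000055148, mm10 chr8:72319033-72321656, plus strand) and Klf3 (ENSMUSG00000029178, mm10 chr5:64803388-64832901, plus strand) were not restricted to T cells. In both libraries together Klf2 stood at 762 CPM in neutrophil-like cells, 623 CPM in B/plasma-like cells and 621 CPM in naive-like T cells, with overlapping intervals. The cDC1-like class (340 CPM) and the monocyte/macrophage-like class (219.8 CPM) followed, each separated from the group above it, and the CD8-like T cells stood near the bottom at 60.4 CPM. Klf3 had overlapping intervals between neighbours in its whole order, while groups further apart were separated. It stood at 149 CPM [106 to 205] in naive-like cells, 51.0 CPM [44.3 to 58.5] in monocyte/macrophage-like cells and 7.55 CPM [2.06 to 19.3] in CD8-like cells. Over the 20 cell groups r was 0.55 between Klf2 and Klf3 and between -0.08 and 0.11 for either of them with Lef1, Tcf7 or Satb1.

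Il7r (ENSMUSG00000003882, mm10 chr15:9505788-9530176, minus strand) was spread over several classes. Naive-like cells had 37 UMIs (352 CPM) in shSdc1 and 83 UMIs (557 CPM) in shRFP, and regulatory-like cells had 69 UMIs (327 CPM) in shSdc1 and 45 UMIs (410 CPM) in shRFP. Migratory dendritic cell-like cells came close, with 28 UMIs (249 CPM) in shSdc1 and 27 UMIs (279 CPM) in shRFP. The intervals of naive-like and regulatory-like cells overlapped, and so did those of regulatory-like and migratory dendritic cell-like cells. Those of naive-like and migratory dendritic cell-like cells did not in shRFP ([444 to 691] and [184 to 406] CPM). CD8-like cells stood below all of them at 13 UMIs (35.4 CPM) in shSdc1 and 3 UMIs (18.5 CPM) in shRFP. S1pr1 (ENSMUSG00000045092, mm10 chr3:115710433-115715072, minus strand) had few UMIs, with 12 (114 CPM) in shSdc1 and 20 (134 CPM) in shRFP in naive-like cells. B/plasma-like cells had 4 S1pr1 UMIs in shSdc1 and 7 in shRFP, an interval that overlapped that of naive-like cells.

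The same contrast held within CD8+ cells, taken by a Cd8a or Cd8b1 UMI and no Cd4 or Foxp3 UMI. Naive-like CD8+ cells numbered 71 in shSdc1 and 121 in shRFP, and other CD8+ T-like cells 372 in shSdc1 and 168 in shRFP. In both libraries together, Lef1 stood at 577 CPM [423 to 770] in naive-like CD8+ cells and 43.0 CPM [25.9 to 67.1] in other CD8+ cells, and Satb1 had the same counts. Il7r stood at 439 CPM [306 to 611] and 33.9 CPM [19.0 to 56.0], and Dapl1 at 251 CPM [153 to 388] and 27.1 CPM [14.0 to 47.4]. Only 5 shSdc1 and 6 shRFP naive-like cells had a Cd4 UMI without Cd8, too few to describe.

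Between the libraries, all 8 genes were lower in T-like cells of shSdc1 tumors. T-like cells numbered 1750 in shSdc1 and 1079 in shRFP. Lef1 had 74 UMIs (68.9 CPM) in shSdc1 and 134 UMIs (237 CPM) in shRFP, a ratio of shSdc1 over shRFP of 0.291 [0.216 to 0.389]. Dapl1 had 17 UMIs (15.8 CPM) in shSdc1 and 47 UMIs (83.2 CPM) in shRFP, a ratio of 0.190 [0.102 to 0.338], the lowest of the set. The ratio was 0.335 [0.222 to 0.50] for Tcf7, 0.371 [0.286 to 0.479] for Satb1, 0.312 [0.241 to 0.404] for Klf2 and 0.292 [0.160 to 0.519] for Klf3. The receptors differed less, with 0.550 [0.439 to 0.689] for Il7r and 0.560 [0.332 to 0.945] for S1pr1. The S1pr1 value differed with how T cells were chosen, although the intervals overlapped. It was 1.01 [0.487 to 2.20] in cells gated on T cell receptor complex transcripts, with 25 UMIs in shSdc1 and 12 UMIs in shRFP. All 8 members were lower by at least 1.5-fold, and 7.49% of the 7678 genes with at least 20 UMIs in T-like cells were.

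A smaller naive-like share and lower levels within the naive-like cells went together. Naive-like cells made up 15.9% [14.3 to 17.7] of T-like cells in shSdc1 and 36.6% [33.7 to 39.6] in shRFP, and held 9.80% and 26.4% of T-like UMIs. Within them, Lef1 had a ratio of 0.238 [0.136 to 0.395] and Dapl1 of 0.225 [0.0856 to 0.504], close to their ratios over all T-like cells. Klf2 (0.546 [0.377 to 0.780]), Satb1 (0.638 [0.447 to 0.898]) and Il7r (0.631 [0.416 to 0.940]) were nearer to 1, and the intervals of Tcf7, Klf3 and S1pr1 included 1. Of the 8 members 6 were lower by at least 1.5-fold in naive-like cells, and 13.0% of 2081 genes were.

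The naive-like cells of the 2 libraries also differed in the markers of other subsets. The 5 CD8 T markers summed to 4817 CPM in shSdc1 and 2866 CPM in shRFP, the 6 regulatory T markers to 646 CPM and 369 CPM, and the 12 monocyte/macrophage markers to 1625 CPM and 973 CPM, with all but 2 of these 12 detected. The 7 naive markers that named the cells were lower in shSdc1, as given above. Of 9 measured effector transcription factors 8 were higher by at least 1.5-fold in the shSdc1 naive-like cells and none was lower, where 18.6% of genes were higher. Their part in the lower Lef1 and Dapl1 levels was not tested. Within the naive-like CD8+ cells, Lef1 had 5 UMIs (169 CPM) in shSdc1 and 41 UMIs (820 CPM [588 to 1112]) in shRFP, a ratio of 0.206 [0.0634 to 0.520]. Satb1 did not share that difference in these cells, with 17 UMIs (573 CPM) in shSdc1 and 29 UMIs (580 CPM) in shRFP, a ratio of 0.989 [0.510 to 1.86].

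In T-like cells outside the naive-like sub-cluster, the 6 members with at least 20 UMIs all had ratios below 1. Their values ranged from 0.455 to 0.891, with intervals that overlapped. Lef1 had 56 UMIs (57.8 CPM) in shSdc1 and 27 UMIs (64.9 CPM) in shRFP in these T-like cells, a ratio of 0.891 [0.553 to 1.47]. Klf2 had 54 UMIs (55.7 CPM) in shSdc1 and 51 UMIs (123 CPM) in shRFP, a ratio of 0.455 [0.304 to 0.680], and Satb1 had a ratio of 0.621 [0.404 to 0.966]. Dapl1 was too rare here to compare, with 10 UMIs in shSdc1 and 3 UMIs in shRFP. Of the 6 members with at least 20 UMIs, 3 were lower by at least 1.5-fold, and 8.64% of 7220 genes were. The Klf2 and Il7r ratios in regulatory T cells differed in value with how those cells were taken, but the intervals overlapped. In regulatory-like cells the ratio was 0.378 [0.186 to 0.754] for Klf2 and 0.798 [0.540 to 1.19] for Il7r, and in cells with a Foxp3 UMI it was 0.884 [0.290 to 3.20] for Klf2 and 0.368 [0.181 to 0.750] for Il7r.

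**Figure D2:**
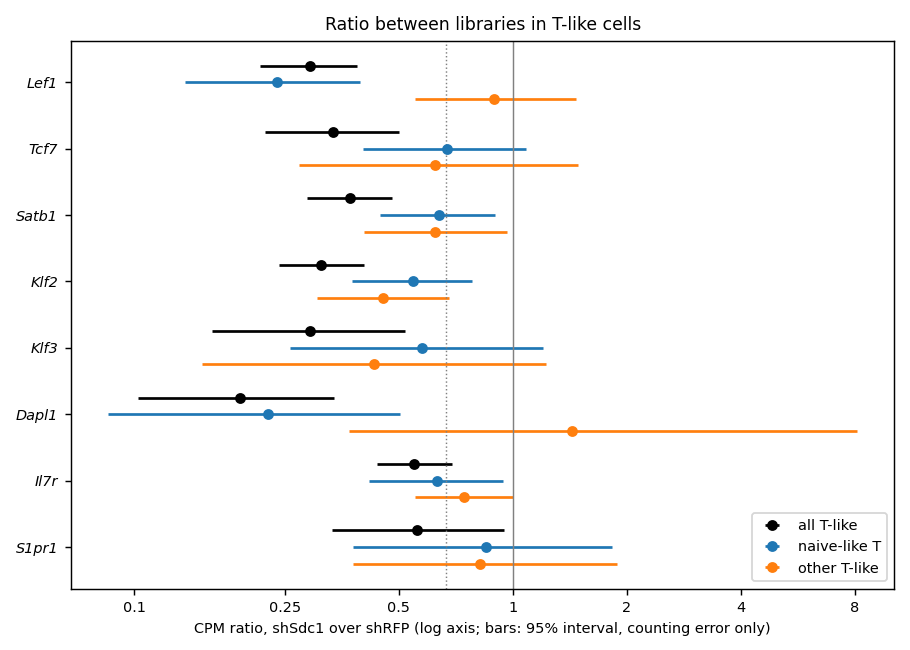
Ratio of CPM, shSdc1 over shRFP (horizontal axis, log scale), for each gene in all T-like cells, naive-like T cells and other T-like cells; bars are 95% intervals of counting error, the solid line marks 1 and the dotted line a level 1.5-fold lower. All 8 points for all T-like cells lie left of the dotted line, while in other T-like cells Lef1 lies near 1 at 0.891 and Klf2 at 0.455.

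The share and the level were also computed apart, by sub-cluster. Because the content of the naive-like sub-cluster differed between the libraries, the level within it can still hold a difference in mix. With the T subsets weighted alike in both libraries, the ratio was 0.452 for Lef1, 0.364 for Dapl1, 0.532 for Klf2, 0.516 for Klf3, 0.637 for Tcf7 and 0.659 for Satb1, and it was 0.743 for Il7r and 0.817 for S1pr1. With the levels of each subset held at those of shRFP and only the mix set to that of shSdc1, the ratio ranged from 0.439 for Dapl1 to 0.710 for Il7r, and it was 0.534 for Lef1. Both calculations left every gene below 1.

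Counted by cells, all 8 genes had lower shares in shSdc1 at 300 UMIs, while the size depended on the depth and the cells kept. T-like cells were thinned to 300 UMIs each, which left out 311 shallower cells of 1750 in shSdc1 and 234 of 1079 in shRFP. A Lef1 UMI was then found in 2.64% [1.88 to 3.61] of shSdc1 and 7.22% [5.57 to 9.18] of shRFP cells, against 0.0452% and 0.0785% of monocyte/macrophage-like cells thinned alike. Dapl1 was found in 0.347% [0.113 to 0.809] of shSdc1 and 3.55% [2.41 to 5.03] of shRFP cells. Unthinned shares were 4.06% and 9.73% for Lef1 and 0.686% and 4.17% for Dapl1. Thinning to 500 UMIs kept 723 shSdc1 and 337 shRFP cells, of which 40 and 45 were naive-like, against 188 and 284 naive-like cells at 300 UMIs. The cells kept thus changed together with the depth, and the ratio of shares at 500 UMIs was 0.466 for Lef1. It was 0.388 [0.0938 to 1.53] for Dapl1, against 0.0979 [0.0296 to 0.255] at 300 UMIs. For Satb1 it was 0.740 [0.389 to 1.45], against 0.377 at 300 UMIs, and for S1pr1 it was 1.01 [0.358 to 3.24], against 0.548. For Klf2, the 3.13% of shSdc1 T-like cells with a UMI lay below the 4.52% of monocyte/macrophage-like cells of the same library, a class that itself carries Klf2. Cells with several factors were counted too. At least 2 of the 5 transcription factors had a UMI in 21 of 279 naive-like shSdc1 cells (7.53% [4.72 to 11.3]) and in 79 of 395 naive-like shRFP cells (95% interval 16.2% to 24.3%), at unthinned median depths of 331 and 340 UMIs, and the difference was not tested.

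The 8 genes were most abundant in the T cells with the fewest detected genes. Among barcodes with a T cell receptor complex UMI and no macrophage or B cell marker UMI, the members together stood at 1103 CPM in shSdc1 and 2687 CPM in shRFP with 200 to under 300 genes, a ratio of 0.410 [0.346 to 0.485]. At 600 genes or more they stood at 266 CPM in shSdc1 and 356 CPM in shRFP, a ratio of 0.746 [0.539 to 1.04]. Between these bins the summed ratio was 0.514 [0.394 to 0.672] from 300 genes and 0.561 [0.417 to 0.754] from 400 to under 600 genes. The summed ratio thus lay below 1 in smaller transcriptomes and was not separable from 1 at 600 genes or more. Single members differed in that last bin. Klf2 had a ratio of 0.438 [0.206 to 0.942], and the intervals of the other members included 1. Satb1 (1.55), Il7r (1.44) and S1pr1 (1.03) lay above 1 there. The 200-gene minimum itself removed members' UMIs unequally. Of the deposited Lef1 UMIs, 1 of 98 (1.02%) in shSdc1 and 41 of 196 (20.9%) in shRFP were in barcodes left out, while 2.04% and 3.28% of all UMIs were. Barcodes under 200 genes and under 10% mitochondrial UMIs numbered 252 in shSdc1 and 515 in shRFP, and 24.6% of them in shSdc1 and 38.4% in shRFP had a T cell receptor complex UMI. Over all barcodes that passed the filter, 3 of the 8 members were lower by at least 1.5-fold, where 5.79% of 10801 genes were. Over all deposited barcodes, cells gated on at least 2 such UMIs and no macrophage or B cell marker UMI had a Lef1 ratio of 0.299 [0.216 to 0.411].

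**Figure D3:**
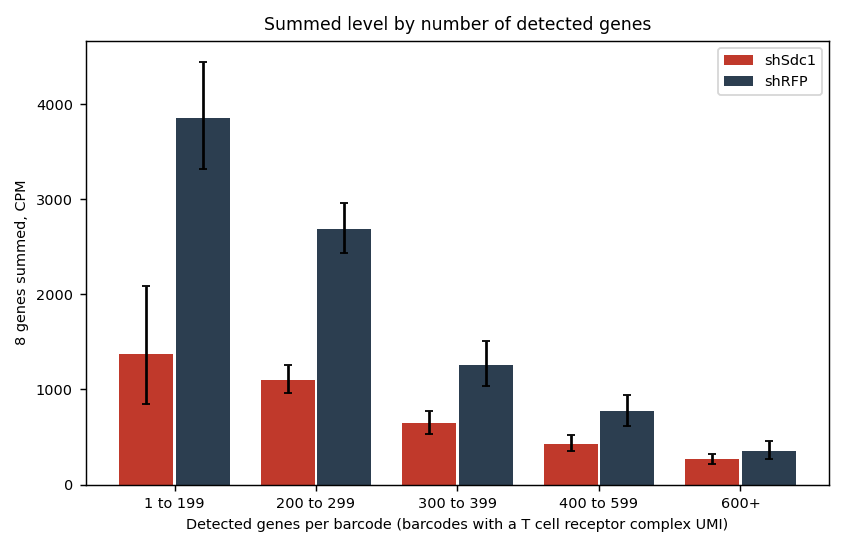
Summed level of the 8 genes in CPM (vertical axis, from 0) in barcodes with a T cell receptor complex UMI, by the number of genes detected in the barcode (horizontal axis); bars are the 2 libraries, shSdc1 left of shRFP, with 95% Poisson intervals. The level declines as the number of detected genes grows, and shSdc1 lies at 1103 and shRFP at 2687 CPM with 200 to under 300 genes.

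Klf2 was lower in shSdc1 in several classes beyond T cells, but not in all. In neutrophil-like cells, with 25 Klf2 UMIs in both libraries together, the ratio was 4.10. In cDC1-like cells, dendritic cells that cross-present antigen, it had 38 UMIs (168 CPM) in shSdc1 and 95 UMIs (576 CPM) in shRFP, a ratio of 0.292 [0.195 to 0.429]. NK-like cells had 15 UMIs (104 CPM) in shSdc1 and 20 UMIs (488 CPM) in shRFP, a ratio of 0.214 [0.102 to 0.439], and B/plasma-like cells 26 UMIs (367 CPM) and 52 UMIs (956 CPM), a ratio of 0.384 [0.230 to 0.626]. In the B/plasma-like class 31.9% of 808 genes were lower by at least 1.5-fold, against 11.8% of 2959 genes in cDC1-like and 14.9% of 1644 genes in NK-like cells. Monocyte/macrophage-like cells had 340 UMIs (178 CPM) in shSdc1 and 556 UMIs (256 CPM) in shRFP, a ratio of 0.695 [0.606 to 0.797], where 9.07% of 9115 genes were lower by at least 1.5-fold. That class was made of different clusters in the 2 libraries. In the cluster led by Ccl8, Stab1 and Gas6, with 1331 shSdc1 and 627 shRFP cells, the Klf2 ratio was 0.468 [0.375 to 0.583]. In the cluster led by Ctsk, Ppbp and Arg1, with 647 and 835 cells, it was 1.17 [0.905 to 1.5], and in the cluster led by Chil3, Hp and Ifitm6, with 121 and 758 cells, it was 0.983 [0.574 to 1.60].

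Early-response and heat-shock genes, known to be induced by tissue dissociation, were lower too. The 18 genes of such a list, among them Fos, Jun and Hspa1a, were chosen after these data were seen. Their summed level was 8251 CPM in shSdc1 and 10113 CPM in shRFP in T-like cells, a ratio of 0.816 [0.789 to 0.844], with 8 of 17 measured genes lower by at least 1.5-fold and none higher. In cDC1-like cells it was 10462 CPM in shSdc1 and 21318 CPM in shRFP, a ratio of 0.491 [0.466 to 0.517], with 15 of 17 lower. In NK-like cells the ratio was 0.838 [0.737 to 0.955], with 3 of 12 lower. Over all measured genes, 7.49% were lower by at least 1.5-fold in T-like, 11.8% in cDC1-like and 14.9% in NK-like cells. The Klf2 ratio lay below the list's ratio with intervals that did not overlap in naive-like, NK-like and cDC1-like cells. The intervals overlapped in regulatory-like, B/plasma-like and monocyte/macrophage-like cells. In monocyte/macrophage-like cells the list had the lower ratio, at 0.613 [0.602 to 0.623]. Jun had a ratio of 0.413 [0.327 to 0.520] in T-like cells and 0.216 [0.156 to 0.295] in cDC1-like cells. The part of handling in the Klf2 difference was not tested.

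**Figure D4:**
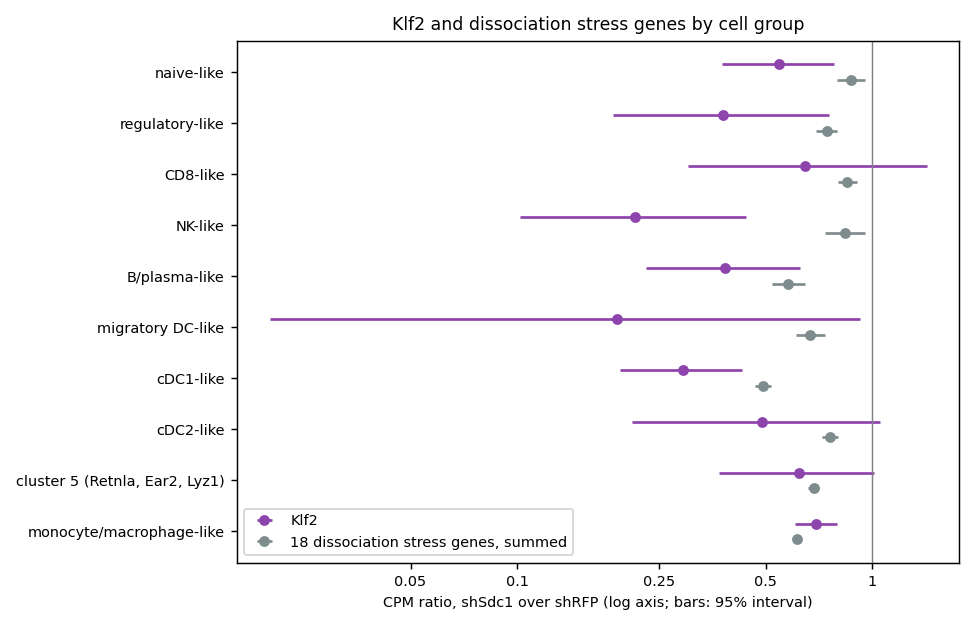
Ratio of CPM, shSdc1 over shRFP (horizontal axis, log scale), of Klf2 and of 18 dissociation stress genes summed, in 10 cell groups; bars are 95% intervals of counting error and the line marks 1. All points drawn lie below 1, with Klf2 at 0.214 in NK-like and 0.292 in cDC1-like cells, where the stress genes lie at 0.838 and 0.491. Neutrophil-like cells are not drawn, and Klf2 had a ratio of 4.10 there.

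The other members outside T cells gave a mixed picture. Satb1 did not differ beyond counting error in NK-like cells, with a ratio of 1.12 [0.600 to 2.24], nor did Tcf7, with 0.684 [0.315 to 1.60]. These intervals are wide and do not show that the levels were alike. In B/plasma-like cells Satb1 had 2 UMIs in shSdc1 and 22 UMIs in shRFP, a ratio of 0.0698 [0.00795 to 0.284]. Over all kept cells outside the T-like class, Tcf7 was higher in shSdc1, with 35 UMIs and 17 UMIs in shRFP, a ratio of 2.30 [1.25 to 4.38]. NK-like cells, 257 in shSdc1 and 77 in shRFP, held 24 and 10 of these UMIs, and migratory dendritic cell-like cells 9 and 2. Il7r in monocyte/macrophage-like cells had 172 UMIs (90.2 CPM) in shSdc1 and 230 UMIs (106 CPM) in shRFP, a ratio of 0.850 [0.694 to 1.04], and in cDC2-like cells it had 7 UMIs in shSdc1 and 27 UMIs in shRFP, a ratio of 0.330 [0.121 to 0.778].

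Other genes of naive and memory T cells followed the 8 members in T-like cells. Of 22 listed genes 20 were measured and 12 were lower by at least 1.5-fold in shSdc1, none was higher, where 7.49% of all genes were lower and 12.7% higher, and their median log2 ratio was -0.99, against 0.07 over all genes. All 7 markers that named the naive-like cells are on this list, so it is not separate from their smaller share. Ccr7, the chemokine receptor for lymph node entry, had a ratio of 0.419 [0.289 to 0.606]. Foxp1, a factor known to keep T cells quiescent, had 114 UMIs in shSdc1 and 139 UMIs in shRFP, a ratio of 0.431 [0.334 to 0.557], and the inhibitor Pik3ip1 had 0.214 [0.103 to 0.419]. Igfbp4, Bach2, Txk, Nsg2, Actn1 and Rasgrp2 had ratios between 0.236 and 0.402. The most abundant genes of the list were not among those past 1.5-fold, with ratios of 1.23 for Ets1, 0.937 for Cd28 and 1.16 for Bcl11b.

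Partners, relatives and namesakes of the members had few genes past 1.5-fold in T-like cells, except the Krüppel-like factors. Over all genes in T-like cells, 7.49% were lower and 12.7% higher. For the interleukin-7 pathway 11 of 13 genes were measured, none was lower by at least 1.5-fold and 1 was higher, Jak3, the kinase bound to the common gamma chain, at 1.85 [1.21 to 2.90], while Il2rb stood at 1.41, Mcl1 at 0.863 and Jak1 at 1.02. For LEF and TCF partners 5 of 10 were measured and 1 was higher, the corepressor Tle3, at 1.75 [1.25 to 2.50], while Tle5 stood at 1.07 and Ctnnb1 at 1.14. For sphingosine-1-phosphate signalling 5 of 10 were measured and 1 was lower, the kinase Sphk2, with 10 UMIs in shSdc1 and 14 in shRFP, at 0.376 [0.149 to 0.910], while Gnai2 stood at 1.09, Gna13 at 1.41 and Sgpp1 at 0.877. Of the other Krüppel-like factors 7 of 14 were measured in T-like cells, with 2 higher and 1 lower by at least 1.5-fold, each with an interval that included 1, and Klf6 stood at 0.831, Klf13 at 0.997 and Klf10 at 1.35. Of 5 genes that share the death associated protein name, which does not make them 1 family, 4 were measured. None passed 1.5-fold, with Dap at 1.34, Dap3 at 1.30 and Dapk3 at 0.770.

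Effector factors were not raised as a group over all T-like cells. Of 16 effector transcription factors 2 were higher by at least 1.5-fold and none was lower, where 12.7% of genes were higher. They were Tbx21, which encodes T-bet, at 2.02 [1.19 to 3.60] and Irf4 at 1.84 [1.04 to 3.44], while Ikzf2 stood at 1.11, Id2 at 1.13 and Maf at 1.49. Of the residency and egress genes 9 of 11 were measured and 1 was higher, the collagen-binding integrin chain Itga1, with 29 UMIs in shSdc1 and 5 in shRFP, at 3.05 [1.17 to 10.1], while Itgb7 stood at 1.22, Cxcr6 at 1.29 and Ccr2 at 1.01.

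The genes most like the members across 20 cell groups, with both libraries summed, were named by Pearson's r of log2(CPM + 10) among 7267 eligible genes. To the mean profile of the 8 members these were Celf1 (0.789), Tpt1 (0.785), Bcl9l (0.760), Txk (0.727), Tecpr1 (0.718), Crlf3 (0.707), Jak1 (0.704), Armc7 (0.703), Gpr174 (0.697) and Terf2 (0.684). The list was not stable, since 5 of these 10 remained with a pseudocount of 1 CPM. For single members the closest included Skap1 (0.928) and Thy1 (0.909) to Lef1, Pdcd4 and Utrn to Tcf7, Terf2, Phip and Mycbp2 to Satb1, and Armc7, Prkcq and Txk to Dapl1 (0.779 to 0.814). Morc3, Sh3bp5 and Mylip were closest to Klf2, Abraxas2, Pdlim5 and Cnpy3 to Klf3, Calcrl, Gpkow and Micall1 to Il7r, and Rabif, Icam2 and Bcl9l to S1pr1. Within the set, Lef1 and Dapl1 had an r of 0.77.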

How the data were processed

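The authors deposited raw UMI counts per gene and barcode. Per the file headers these come from Cell Ranger 6.1.1, and the submitters' processing notes name mm10; which annotation they used was not stated. Gene positions came from GENCODE M21, which held 31184 of 31253 feature identifiers. The 8 members and all gene lists were chosen with earlier results of these data known, and the stress list, the motifs and the cluster naming rule were set after values were seen.

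Barcodes needed at least 200 genes and under 10% mitochondrial UMIs. Scrublet's automatic threshold marked 0 barcodes in shSdc1 and 1 in shRFP and had not worked, so the highest scores were removed at 0.8% per 1000 barcodes, 263 in shSdc1 and 242 in shRFP. Cells of both libraries were clustered together with scanpy 1.11.5 (2000 variable genes without the members, 30 components, 15 neighbours, Leiden resolution 1) into 17 clusters, 16 of them named. The 3 T-like clusters were split into 9 sub-clusters, of which 4 kept no name. UMIs were summed per group and library. With 1 library per group there was no test and no p-value. Levels have exact Poisson intervals, ratios exact conditional binomial intervals and shares exact Clopper-Pearson intervals, computed with scipy 1.17.1 at 95%. Genes whose UMIs summed to 20 or more over the libraries count as measured, and higher or lower means past 1.5-fold. The ratios and intervals were tested on simulated counts. Named list genes were the 3 with the most UMIs in T-like cells and those past 1.5-fold whose interval excluded 1. Genes alike needed 100 UMIs, and the first 10 and the first 3 per member were named. A few genes that these rules name are not reported here. Alternatives were other scalings (TMM from edgeR 4.0.16, and median of ratios), gene minimum, doublet handling, clustering seed, members among the variable genes, marker gates, subset weights, thinning depth and leaving out single cells or sub-clusters.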

Additional observations from a re-analysis of the deposited data

Results flagged for a closer look

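Barcodes outside the filter carried members' transcripts, mostly in shRFP. In shSdc1 they held 5 UMIs of Tcf7, 9 of Satb1, 35 of Klf2, 7 of Klf3 and 19 of Il7r. In shRFP they held 41 UMIs of Lef1, 25 of Tcf7, 71 of Satb1, 123 of Klf2, 17 of Klf3, 13 of Dapl1, 39 of Il7r and 13 of S1pr1. Each of these counts is above the limit of 3 that a count of 0 allows, and the comparisons of cell groups do not use them. Lef1, Dapl1 and S1pr1 had 1, 0 and 3 such UMIs in shSdc1.

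Klf2 was higher in shSdc1 in neutrophil-like cells, with 18 UMIs (1423 CPM) in 26 shSdc1 cells and 7 UMIs (347 CPM) in 33 shRFP cells, a ratio of 4.10 [1.63 to 11.6], while it was lower by at least 1.5-fold in T-like, NK-like, B/plasma-like and cDC1-like cells. In monocyte/macrophage-like cells the ratio was 0.695, short of 1.5-fold, and migratory dendritic cell-like cells had 2 UMIs in shSdc1 and 9 UMIs in shRFP, too few to count as measured. The difference between these classes was not tested.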

How the results depend on the processing

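In T-like cells every member stayed below 1 with likely doublets kept, with members among the variable genes, with another clustering seed, with TMM or median-of-ratios scaling, without the top cell of each library, and without the monocyte/macrophage-like or the cycling-like sub-cluster. The last 2 and the gate over all deposited barcodes were chosen after seeing the data. A minimum of 500 genes per barcode moved the T-like ratio to 0.515 for Lef1, 0.515 for Tcf7 and 0 for Dapl1, and turned it to 1.97 [0.675 to 7.85] for Satb1 and 1.72 [0.192 to 81.2] for Klf3. The T-like cells were then a single cluster led by Ikzf2, Tnfrsf4 and Ctla4, with 231 shSdc1 and 90 shRFP cells. A cluster with Cd8a and Cd8b1 among its leading genes (241 and 112 cells) had no name and fell outside them. These ratios therefore cover a different set of T cells. This minimum left no naive-like cluster and few UMIs. It also turned the ratio over all filtered barcodes to 1.13 for Lef1 and 1.44 for Dapl1. The Klf2 ratio in B/plasma-like cells turned to 1.92, and the Dapl1 level in these T-like cells over other cells to 0.619. Subsets weighted alike moved Lef1 to 0.452, Tcf7 to 0.637, Satb1 to 0.659, Klf2 to 0.532, Dapl1 to 0.364 and Il7r to 0.743. The marker gate gave 0.507 for Satb1 and 1.01 for S1pr1. Thinning T-like cells to 500 UMIs moved the ratio of shares to 0.740 for Satb1 and 0.388 for Dapl1. With at least 100 UMIs per gene, fewer genes counted as measured, and 4 naive and memory genes were lower in place of 12. Igfbp4, Bach2, Nsg2, Pik3ip1, Rasgrp2 and Actn1, with 27 to 71 UMIs in T-like cells, no longer counted. The share over all genes at that minimum is not given here. Beyond these constructions the cause was not tested.

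No paired analysis was possible because each group is 1 library. The limits are depth, with medians of 331 and 340 UMIs in naive-like cells of shSdc1 and shRFP, library and group being the same thing, and sub-clusters whose content differed between the libraries.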
